A study of Homo sapiens with 6 samples.

Results

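The miR-103/miR-107 family was examined in small RNA libraries of vehicle-treated and Withaferin A (WA)-treated MDA-MB-231 cells. Its members were chosen by name, as every listed miRNA called miR-103a, miR-103b or miR-107. This gave 2 of the 413 miRNAs listed in the deposited table, hsa-miR-103a-3p and hsa-miR-107. The study describes the listed miRNAs as those expressed in both groups, so the table is a selection from what was sequenced, and shares, places and medians refer to it. In the table, 41 of the 413 were at 0 in all 3 WA libraries and 0 of them in all 3 vehicle libraries. MDA-MB-231 is a human breast cancer line of the triple-negative type, long established in culture, and WA is a steroidal lactone of the plant Withania somnifera. The WA group (n = 3) received WA at 2 µM for 24 h. The control group (n = 3) was cultured for the same time without WA, with DMSO as vehicle by the methods of the study, while the sample labels name no DMSO. All 6 libraries came from the same line and carried no other treatment. The study calls the replicates independent, but the labels do not say whether they were separate cultures, so the p-values measure the spread between these libraries. No mature miRNA by itself defines this line, and its identity was not checked against a marker here.

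miRNAs of about 22 bases are cut from hairpin precursors and guide Argonaute proteins to mRNAs that pair with the seed, which is bases 2 to 8 of the miRNA. The miR-103/miR-107 hairpins lie in introns of the PANK genes. These genes encode pantothenate kinases, the enzymes that start coenzyme A synthesis from vitamin B5. The family is known for repressing DICER1, which encodes the enzyme that cuts the precursor hairpins, and for lowering insulin sensitivity through CAV1. miR-103a-3p is also widely used as an endogenous reference in qRT-PCR of miRNAs. Neither mRNAs nor proteins were measured in these libraries.

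Both mature miRNAs are 23 bases long, and they are shown because the whole comparison of the members turns on how alike they are. The seed is in capitals, and the sequences are from RefSeq (GRCh38.p14).
hsa-miR-103a-3p: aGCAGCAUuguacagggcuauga
hsa-miR-107: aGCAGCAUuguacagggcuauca

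The seeds were identical. The sequences differed by 1 substitution, G22C, with miR-103a-3p first and positions counted from the 5′ end, so the first 21 bases were shared. A read that ends at base 21 or earlier matches both miRNAs, and the rule by which the authors assigned such reads is not given in the sources used here. The sum of both members does not depend on that rule, so it is reported beside the single values and is called the family sum. Among the 368 listed miRNAs with a RefSeq sequence, no other miRNA had this seed. miR-103b, annotated on the opposite strand of both MIR103A hairpins, is the exact reverse complement of miR-103a-3p. miR-103b and the 5p arms miR-103a-1-5p and miR-103a-2-5p were not analysed here, as the table does not list them.

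The members are encoded at 3 places in the genome. The hairpins are printed 5′ to 3′ with the mature miRNA in capitals, to show which parts are shared beyond it.
MIR103A1: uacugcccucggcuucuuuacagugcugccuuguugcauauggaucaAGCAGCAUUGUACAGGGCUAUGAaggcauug
MIR103A2: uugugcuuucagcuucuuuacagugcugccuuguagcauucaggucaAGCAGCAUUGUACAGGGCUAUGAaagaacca
MIR107: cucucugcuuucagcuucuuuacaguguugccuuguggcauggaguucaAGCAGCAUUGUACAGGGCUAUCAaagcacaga

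In GRCh38, MIR103A1 lies at chr5:168560896-168560973 on the minus strand, inside PANK3. MIR103A2 (same mature miRNA) lies at chr20:3917494-3917571 on the plus strand, inside PANK2. MIR107 lies at chr10:89592747-89592827 on the minus strand, inside PANK1. Each hairpin has the strand of its host gene and falls in intron 5 of the 6 introns of the canonical GENCODE release 44 transcript. None overlaps an annotated exon of its host, in any of the 3 PANK3, 12 PANK2 or 5 PANK1 transcripts. The exon upstream ends 419, 443 and 369 bases before the hairpin in PANK3, PANK2 and PANK1. The annotation thus placed the whole family at the same position in paralogous genes. MIR103A2 and MIR107 were the most alike of the 3 hairpins, with 85.2% identical columns in a global alignment. The identity was 80.8% between MIR103A1 and MIR103A2, and 79.0% between MIR103A1 and MIR107. Since both MIR103A hairpins give the same mature miRNA, the level of miR-103a-3p cannot be divided between PANK3 and PANK2.

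The values below are normalized read counts, which are the authors' reads of a miRNA divided by a size factor of the library. Totals over the listed miRNAs ran from 156442 to 4778066 reads, the lowest in WA replicate 1, if 1 step of the deposited values is taken as 1 read. WA replicates 1 to 3 listed 166, 146 and 52 miRNAs at 0, and the vehicle libraries from 2 to 21. WA replicate 3 stood apart from its group. Over the 413 miRNAs, its log2 values had Pearson correlations of 0.630 and 0.641 with WA replicates 1 and 2, and from 0.772 to 0.797 with the vehicle libraries. For vehicle replicate 1 they were 0.785 and 0.792 within its own group, whose other pair reached 0.987. The differences of the members are therefore also given without each of these libraries, and the correlations of the members without both. The spreads and the places by level are given with all libraries only. As these are bulk libraries, fewer cells with a miRNA and less of it in each cell cannot be told apart.

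hsa-miR-103a-3p was an abundant miRNA of these cells. It was measured at 17157, 8763 and 7366 in vehicle replicates 1 to 3, and at 10951, 11809.9 and 28659.6 in WA replicates 1 to 3. The highest value was that of WA replicate 3 and the next that of vehicle replicate 1. The groups overlapped, because vehicle replicate 1 exceeded both WA replicates 1 and 2. The vehicle-treated cells averaged 11095 ± 5296 (SD, n = 3), and the WA-treated cells 17140.2 ± 9985 (SD, n = 3). The log2 difference, WA minus vehicle, was 0.58 (standard error 0.72, 95% interval -1.10 to 2.27), a 1.50-fold higher level with an interval from 0.465 to 4.81-fold. The limma adjusted p over all 327 miRNAs tested was 0.610. The difference was smaller than the spread between replicates, and the interval leaves room both for a fall to under 0.5 of the vehicle level and for a rise of over 4-fold.

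**Figure D1:**
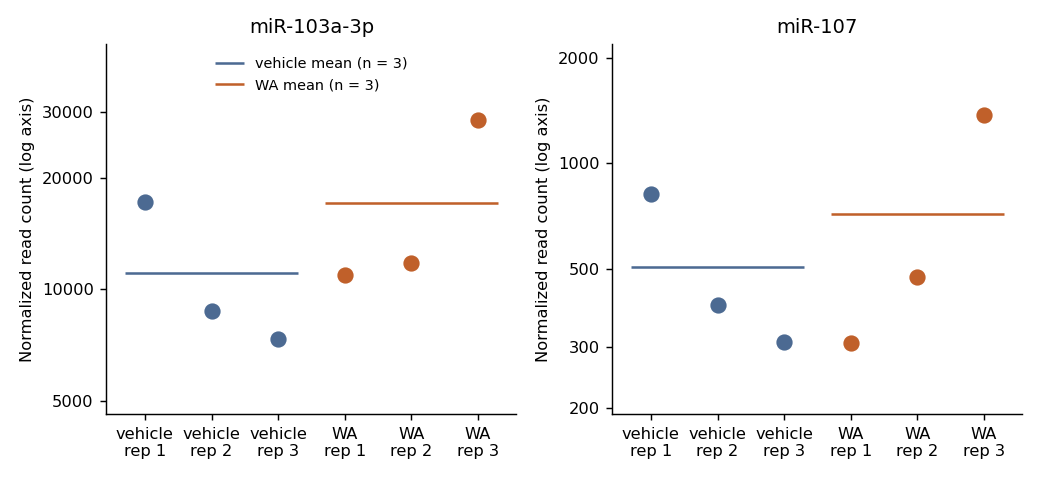
Normalized read count (log axis) of miR-103a-3p and miR-107 in each library, with vehicle libraries in blue, WA libraries in orange and a line at each group mean (n = 3). For both miRNAs, WA replicate 3 is highest, vehicle replicate 1 is next, and the groups overlap.

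hsa-miR-107 was present at a far lower level. It was measured at 817, 394 and 309 in vehicle replicates 1 to 3, and at 307, 475 and 1370.4 in WA replicates 1 to 3. The order was led by the same libraries as for miR-103a-3p, WA replicate 3 and then vehicle replicate 1, and the lowest WA value lay below every vehicle value. The vehicle-treated cells averaged 507 ± 272 (SD, n = 3), and the WA-treated cells 718 ± 572 (SD, n = 3). The log2 difference was 0.34 (standard error 0.84, 95% interval -1.62 to 2.29) with a limma adjusted p of 0.793. The direction of this small difference rested on 1 library. Without WA replicate 3 it was -0.28, and for miR-103a-3p it was then 0.14. Without vehicle replicate 1 it was 0.74 for miR-107 and 0.95 for miR-103a-3p.

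The family sum gave the same picture, as miR-103a-3p makes up most of it. Over vehicle replicates 1 to 3 it was 17973, 9156 and 7675, and over WA replicates 1 to 3 it was 11258, 12285 and 30030. Its log2 difference was 0.57 (standard error 0.73, 95% interval -1.12 to 2.27) with a limma adjusted p of 0.615. By the exact permutation test over the libraries the two-sided p was 0.4 for miR-103a-3p, 0.7 for miR-107 and 0.4 for the sum, where 3 libraries against 3 cannot go below 0.1.

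Neither member was called at an adjusted p under 0.05, where 5.50% of all tested miRNAs were. Neither had an unadjusted p under 0.05, where 26.3% of all did, and neither had groups that do not overlap, where 27.2% of all did. Over all tested miRNAs the median log2 difference was -0.91, so both members lay above the middle of the table. Of the 327 miRNAs, 28.7% had a more positive difference than miR-103a-3p and 32.7% a more positive one than miR-107. In absolute size, 54 miRNAs differed less than miR-103a-3p and 29 less than miR-107. That median depended on the filter. It was -0.10 over the 173 miRNAs at 10 or more in every library and -1.31 over all 413. It also moved with the scaling, by 0.29 with upper-quartile scaling and by 0.20 with a trimmed mean of M values. Under these scalings the difference was 0.85 and 0.78 for miR-103a-3p and 0.61 and 0.53 for miR-107, and neither was called. The WA libraries held fewer reads than the vehicle libraries on the whole. With every library thinned at random to the 156442 reads of the smallest, the difference was 0.61 for miR-103a-3p and 0.31 for miR-107.

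As a share of the reads of all listed miRNAs in a library, miR-103a-3p took 1.78%, 0.642% and 0.574% of vehicle replicates 1 to 3. Of WA replicates 1 to 3 it took 1.21%, 1.17% and 1.71%. The widest exact 95% interval of these shares was that of WA replicate 1, from 1.15% to 1.26%. These intervals treat reads as independent molecules, which amplified reads are not, and cover counting error only. The gaps between libraries of 1 group were far wider. The share of miR-107 ran from 0.0241% to 0.0848% in the vehicle libraries and from 0.0339% to 0.0817% in the WA libraries. Ranked by group mean, miR-103a-3p was at place 27 of the 413 miRNAs in vehicle-treated cells and at place 19 in WA-treated cells. miR-107 was at places 113 and 88. Library by library the places overlapped between the groups. For miR-103a-3p they were 18, 28 and 30 in vehicle replicates 1 to 3, and 19, 19 and 14 in WA replicates 1 to 3. For miR-107 they were 80, 119 and 131, and then 119, 100 and 72.

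In the order of vehicle means, miR-103a-3p stood between miR-146a-5p, a miRNA induced by NF-κB, at 11526 ± 3352 (SD, n = 3) and miR-30c-5p at 10652 ± 8899 (SD, n = 3). Its vehicle values overlapped with those of both. miR-107 stood between miR-32-5p at 519 ± 424 (SD, n = 3) and miR-30b-5p at 498 ± 160 (SD, n = 3), and overlapped with both. These neighbours were picked as the nearest means, and their gaps to the members were smaller than the replicate spread.

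The members kept close to a fixed proportion. miR-107 made up 4.54%, 4.30% and 4.03% of the family reads in vehicle replicates 1 to 3, and 2.73%, 3.87% and 4.56% in WA replicates 1 to 3. This share does not depend on the size factors. The vehicle libraries and WA replicates 2 and 3 lay within a narrow range, and WA replicate 1 was lowest. WA replicate 1 held only 53 miR-107 reads among 1942 family reads, and its exact 95% interval ran from 2.05% to 3.55%, below the interval of every vehicle library, of which the lowest bound was 3.79%. The group means were 4.29% ± 0.257 (SD, n = 3) and 3.72% ± 0.926 (SD, n = 3). The log2 ratio of miR-107 to miR-103a-3p was lower by 0.24 in WA-treated cells (difference -0.24, exact permutation test, two-sided p = 0.5). Without WA replicate 1 the difference was -0.03. The standard deviation of this log2 ratio over the 6 libraries was 0.29, against 0.71 and 0.86 for the log2 values of miR-103a-3p and miR-107 themselves. A ratio within a library cancels its size factor and any swing that both members share. No ratio of another pair was set beside it. Reads assigned from 1 member to the other would tie their values together, and the part of such reads in this proportion was not tested.

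**Figure D2:**
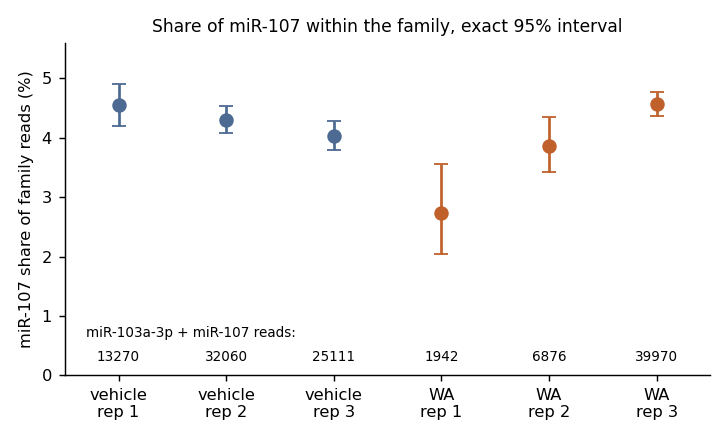
Share of miR-107 in the summed reads of miR-103a-3p and miR-107 for each library, in percent, with exact 95% intervals that cover counting error only, and the number of family reads printed above the axis. 5 libraries lie between 3.87% and 4.56%, and WA replicate 1, with the fewest reads, lies at 2.73%.

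The spread over all 6 libraries was low for both members. The standard deviation of log2(normalized read count + 1) was 0.71 for miR-103a-3p and 0.86 for miR-107, against a median of 2.04 over the 327 tested miRNAs. It includes the difference between the groups as well as the spread within them. Counted from the smallest spread, miR-103a-3p was at place 24 and miR-107 at place 38. Low miRNAs spread more, so each member was also set among miRNAs of like abundance. Of the 76 miRNAs with a mean of at least 1000, miR-103a-3p had place 8, and the median of this set was 1.30. Of the 132 with a mean from 100 to 1000, miR-107 had place 15, and the median was 1.95. With other scalings the place of miR-103a-3p among the 327 ran from 13 with a trimmed mean of M values to 39 with upper-quartile scaling. That of miR-107 ran from 20 to 53 with the same scalings. A low spread was still a 3.89-fold gap between the lowest and the highest library for miR-103a-3p and a 4.46-fold gap for miR-107.

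miR-103a-3p was next set beside 10 other miRNAs that are used as endogenous references. Among these and both members, 12 miRNAs in all, only miR-26a-5p had a smaller spread than miR-103a-3p, at 0.61. miR-191-5p followed at 0.83 and miR-25-3p, of the MCM7 cluster, at 0.83, and miR-107 had place 5. The largest spreads were those of miR-221-3p, at 1.52, and of miR-16-5p, at 2.59. This order includes the difference between the groups. Within the vehicle and WA groups, the SD of miR-103a-3p was 47.7% and 58.3% of its mean. It was smaller in both groups for miR-423-3p (33.6% and 36.8%) and miR-423-5p (42.5% and 57.8%). It was larger in both for miR-16-5p, miR-93-5p, let-7a-5p and miR-221-3p, and larger in 1 group only for the other references. Of the 10 references, 0 passed limma at an adjusted p of 0.05, and 3 were under 0.05 before adjustment. These 3 also had groups that do not overlap. Both counts are near the shares of 26.3% and 27.2% over all tested miRNAs, so they are no result about the references. miR-16-5p was higher in WA-treated cells, with a log2 difference of 4.10. Both arms of miR-423 were lower, with -2.21 for miR-423-3p and -1.83 for miR-423-5p. Their limma adjusted p was 0.0678, 0.0943 and 0.176, and without WA replicate 3 all 3 were under 0.05. In that fit 147 of the 327 tested miRNAs were under 0.05, so these calls, too, are no result about the references. Over the list the median log2 difference was 0.63, with 6 positive and 4 negative values.

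**Figure D3:**
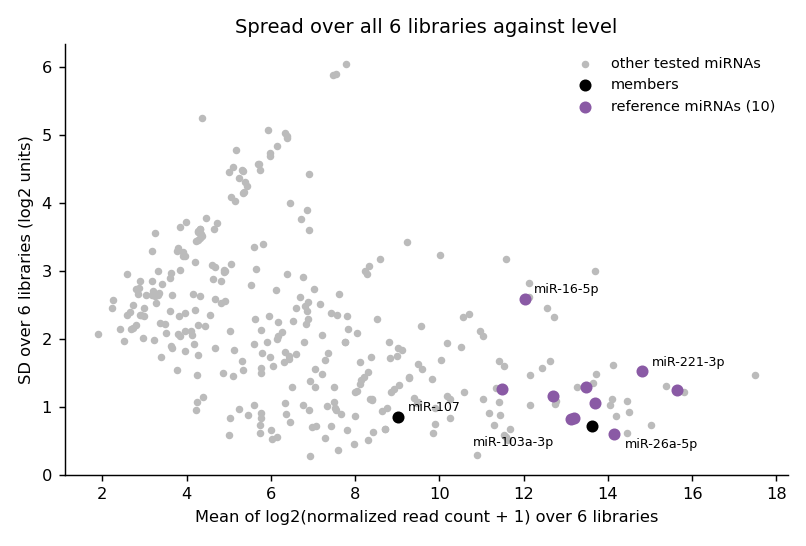
Standard deviation over the 6 libraries against the mean, both of log2(normalized read count + 1), for the 327 tested miRNAs, with the members in black and the 10 reference miRNAs in purple. miR-103a-3p lies near the lower edge among abundant miRNAs, at 0.71, beside miR-26a-5p at 0.61, while miR-16-5p lies at 2.59.

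The members belong to a wider set, the miR-15/miR-107 group, whose miRNAs share the 6 bases AGCAGC at their 5′ end. The listed members of that group are shown with these bases in capitals, because their offset separates the family from its relatives.
miR-103a-3p: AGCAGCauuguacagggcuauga
miR-107: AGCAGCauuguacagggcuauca
miR-15a-5p: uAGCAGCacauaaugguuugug
miR-15b-5p: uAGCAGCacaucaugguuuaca
miR-16-5p: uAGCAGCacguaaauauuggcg
miR-195-5p: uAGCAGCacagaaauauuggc
miR-424-5p: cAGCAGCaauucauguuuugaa
miR-497-5p: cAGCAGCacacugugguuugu
miR-503-5p: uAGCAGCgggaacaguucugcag

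AGCAGC starts at base 1 in miR-103a-3p and miR-107 and at base 2 in the 7 others, so their seeds are shifted by 1 base. The motif was searched on the given strand of the mature miRNAs. It started at base 1 or 2 in 9 of the 368 listed miRNAs with a RefSeq sequence (2.45%) and in 11 of 2370 RefSeq mature human miRNAs (0.464%). miR-646 and miR-6838-5p of the group were not analysed here, as the table does not list them.

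The relatives are known as a cell cycle family that represses cyclins and BCL2, and most of them varied more over the libraries than miR-103a-3p and miR-107 did. The median standard deviation of their log2 values was 1.99 (range 0.59 to 2.59). This spread includes the difference between the groups. Within the vehicle and WA groups, the SD was 47.7% and 58.3% of the mean for miR-103a-3p. It was smaller in both groups for miR-15a-5p (20.6% and 22.6%), miR-195-5p and miR-424-5p. It was larger in both for miR-16-5p (96.3% and 112%) and miR-503-5p, and larger in 1 group only for miR-15b-5p and miR-497-5p. Of the 7 tested, 0 passed limma at an adjusted p of 0.05, and 2 were under 0.05 before adjustment, both higher in WA-treated cells. This count, too, is near the 26.3% of all tested miRNAs that were under 0.05 in either direction. Of those, 15 were higher and 71 lower in WA-treated cells. Whether the shared direction of the 2 relatives departs from that split was not tested. The 2 relatives were miR-15a-5p, with a log2 difference of 3.60 and a limma adjusted p of 0.0837, and miR-16-5p, with 4.10 and 0.0678. Both had an adjusted p under 0.05 without WA replicate 3, where 147 of the 327 tested miRNAs did. For miR-16-5p, vehicle replicates 1 to 3 held 2886, 703 and 515, and WA replicates 1 to 3 held 9345, 9223 and 60816, so its groups did not overlap. miR-195-5p, with groups that also did not overlap, had a log2 difference of 1.50 and a limma adjusted p of 0.393. With miR-15a-5p, 3 of the 7 relatives had groups that did not overlap, as had 27.2% of all tested miRNAs. Whether this count departs from that share was not tested. miR-15b-5p, at 10808 in vehicle replicate 1 and at 187 and 252 in the other vehicle libraries, was at 2957, 2912 and 4658 in WA replicates 1 to 3, so its groups overlapped. Its vehicle mean of 3749 was above its WA mean of 3509, against the sign of its log2 difference of 2.10, which weights the low vehicle libraries more. With all libraries the limma adjusted p of miR-15b-5p was 0.393. Without vehicle replicate 1 its log2 difference was 3.97 and its limma adjusted p was 0.0256. In that fit 21 of the 327 tested miRNAs were under 0.05. miR-424-5p had a log2 difference of 0.28, near those of the members. miR-503-5p had a log2 difference of -1.22. That of miR-497-5p was -1.45, but it has no clear direction. The value rests on 0 reads in WA replicate 1, where 3 reads would be worth 17.4 and miR-497-5p had from 25.7 to 34.6 in the vehicle libraries, and the WA mean of 33.3 was above the vehicle mean of 31.0. The median of the 7 was 1.50, beside -0.91 over all tested miRNAs, or -0.10 over those at 10 or more in every library. Whether the members differed from these relatives in their response was not tested.

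**Figure D4:**
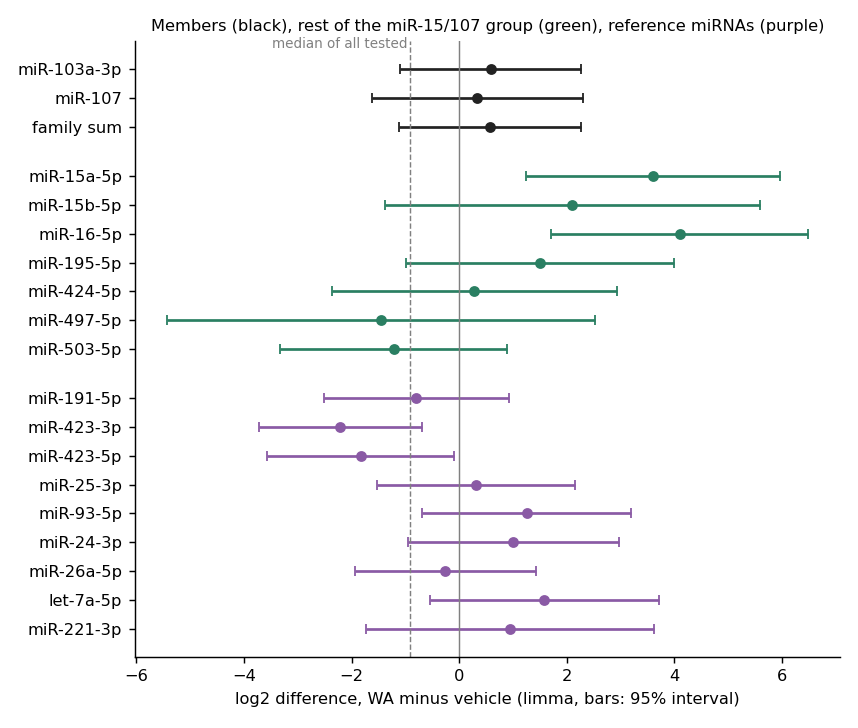
log2 difference, WA minus vehicle, with its 95% interval from limma, for the members and their sum (black), the 7 listed relatives of the miR-15/miR-107 group (green) and the reference miRNAs (purple, miR-16-5p shown once, in green), with a dashed line at the median of all tested miRNAs, -0.91. The intervals of miR-103a-3p, miR-107 and their sum all span 0.

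Over the 6 libraries, log2 values of both members had a Pearson correlation of 0.950 (Spearman 0.829). This likeness was high but not the highest for either. For miR-103a-3p, 7 of the other 326 tested miRNAs were more alike, and for miR-107 2 were. Most alike to miR-103a-3p were miR-221-3p (r = 0.989), let-7e-5p (0.979), miR-93-5p (0.972), miR-342-3p (0.969) and miR-361-5p (0.969). Most alike to miR-107 were let-7e-5p (0.968), miR-221-3p (0.959), miR-103a-3p itself, miR-29c-3p (0.942) and miR-125b-5p (0.937). let-7e-5p, a let-7 guide strand, and miR-342-3p placed the 6 libraries in the same order as miR-103a-3p did.

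All of these were highest in WA replicate 3 and next highest in vehicle replicate 1. Among the 327 tested miRNAs, 56 (17.1%) had these libraries as the highest pair. It was so for 20 (26.3%) of the 76 with a mean of at least 1000, and for 15 (11.4%) of the 132 with a mean from 100 to 1000. For let-7e-5p, vehicle replicates 1 to 3 held 4694, 1333 and 1142, and WA replicates 1 to 3 held 1554, 2878 and 21700.2. Its swing was wider than that of miR-103a-3p. With both libraries left out, which leaves 4, the correlation with miR-103a-3p was 0.978 for miR-221-3p, 0.857 for let-7e-5p and 0.508 for miR-107. The correlation with miR-107 was then 0.867 for miR-29c-3p, 0.791 for let-7e-5p, 0.575 for miR-125b-5p and 0.324 for miR-221-3p. The correlation between the members thus rested in good part on those libraries. The points share their library, depth and size factor, so the correlations are descriptions.

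**Figure D5:**
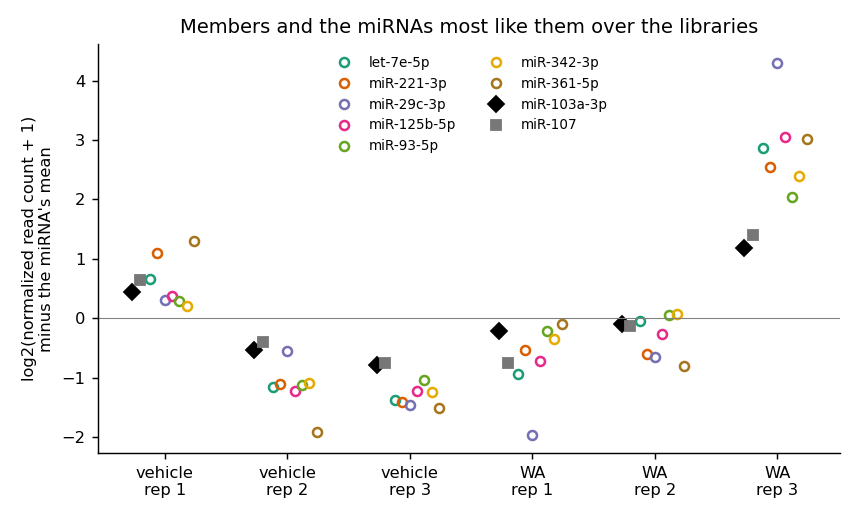
log2(normalized read count + 1) minus the mean of the miRNA over the 6 libraries, for miR-103a-3p (black diamonds), miR-107 (grey squares) and the 7 other miRNAs most like them (open circles). All 9 lie highest in WA replicate 3, and the members deviate less there than the others do.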

How the data were processed

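Small RNA of 3 vehicle-treated and 3 WA-treated MDA-MB-231 libraries was used. By the methods of the study and the submitters' processing notes, the authors trimmed reads with Trim Galore, aligned them with Bowtie against GRCh38.p10, discarded reads of other noncoding RNAs and kept those that matched mature miRNAs of miRBase. The signal they deposited is a read count of the authors divided by a DESeq2 size factor, and so no longer a count. The authors also deposited their own fold ratio, log2 fold change and p-values, which were not used.

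In every library the values were multiples of 1 step (within 0.01 step, 100% of miRNAs). Too few low values fix the step, so no count model was run, although one had been planned for this case, and reads assume that 1 step is 1 read. Totals over the 413 listed miRNAs were 710878, 4778066 and 4196707 reads in the vehicle and 156442, 564882 and 2232934 in the WA libraries.

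Group differences in log2(value + 1) came from limma 3.58.1 under R 4.3.3, two-sided and unpaired, using its variance trend and adjusting by Benjamini-Hochberg over the 327 miRNAs at 10 or more in at least 3 libraries. The log scale understates changes of low miRNAs. For the family sum, 1 row replaced both members. Ratios used exact permutation tests (scipy 1.17.1), and intervals of shares are exact (Clopper-Pearson, 95%). The fit was tested on simulated data. Sequences are from RefSeq, and introns from GENCODE release 44. Its hairpin coordinates and sequences equal those of RefSeq.

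The members and lists were chosen with earlier results of these data known. miRNAs named are the members, both lists, the 5 most alike to each member by Pearson correlation, and neighbours in the order of vehicle means. Alternatives were other pseudocounts, filters and scalings, thinning, no trend, the replicate number as a block and each library left out. The scalings of the spread, the sets of like abundance and the correlations without 2 libraries were added after seeing the data.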

Additional observations from a re-analysis of the deposited data

How the results depend on the processing

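Over the 16 alternative fits the log2 difference of miR-103a-3p ran from 0.14 to 0.95, with limma adjusted p from 0.364 to 0.861, and that of the family sum from 0.12 to 0.94. That of miR-107 stayed positive in 15 fits and turned to -0.28 without WA replicate 3. Its other values ran up to 0.80, without WA replicate 1. Neither member nor the sum was called in any of these fits. The log2 ratio of miR-107 to miR-103a-3p stayed negative in its 9 alternatives, from -0.41 without WA replicate 3 to -0.03 without WA replicate 1.

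The number of miRNAs called was 18. It was 7 with a pseudocount of 0.1 and 7 with 10, 53 with no filter, 10 with a trimmed mean of M values, 0 with upper-quartile scaling (79 at an unadjusted p under 0.05) and 0 with a value of 10 in every library (29 unadjusted). With a library left out it ran from 0 to 147, the highest without WA replicate 3. It was 21 without vehicle replicate 1 and 0 without each of the other 4, with 46 to 52 at an unadjusted p under 0.05. Of the miR-15/miR-107 relatives 0 were called. 1 was with no filter (miR-16-5p), 1 with no variance trend (miR-15a-5p), 1 with the replicate block (miR-16-5p) and 0 to 2 with a library left out. Of the reference miRNAs 0 were called, and 1 was with no filter and 1 with the replicate block (miR-16-5p in both). With a library left out it was 0 to 3. The highest counts of both lists were those without WA replicate 3, where 147 of all tested miRNAs were called. The cause was not tested for any of these.

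The labels do not say whether the replicate numbers pair the libraries. Same-numbered libraries had correlations of their deviations from the group means of -0.07, 0.06 and -0.09. Such deviations sum to 0 within a group, so with n = 3 these correlations cannot decide whether the libraries were paired. With the replicate block the log2 difference of miR-103a-3p was 0.58 (standard error 1.11), and the number of miRNAs called was 24. The count-model tests planned on recovered reads were not run. Depth limits miR-107 most in WA replicate 1, where it rests on 53 reads.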
